A study of Mus musculus with 564 samples.

Results

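H3K27ac was described in resting bone marrow-derived macrophages (BMDMs), the unstimulated (UT) condition of a screen of clinical kinase inhibitors (CKIs). The members were the 73 libraries whose titles end in UT_0h or UT_0h_b and name a CKI, out of 564 libraries in the series. They covered 58 CKIs, of which 43 had 1 UT library and 15 had 2. The other 2 UT libraries, DMSO replicates 1 and 2, held vehicle alone. Each CKI was set against the other CKIs and against DMSO.

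BMDMs are macrophages grown in culture from marrow progenitors. Here they came from male wild type C57/BL6 mice, and every culture was pre-treated for 1 h with DMSO or a CKI. The titles place the UT libraries at 0 h, whereas their treatment labels add 4 h without stimulus, so the total time in contact with each CKI is uncertain. Other libraries of the screen then received LPS, the bacterial ligand of TLR4, or the type 2 cytokine IL-4, at 10 ng/mL. By the paper's methods, each CKI was used at 1 concentration, set by its in vitro binding to an intended kinase. The paper cautions that such measures may differ from potency in cells, so inhibition need not be equal between CKIs. The labels do not say which libraries came from separate cultures or mice, so p-values measure the spread between these libraries, which may be technical.

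Acetylation of lysine 27 of histone H3 is laid down by p300 and CBP and marks active promoters and enhancers, jointly cis-regulatory elements (CREs). In macrophages most enhancers are opened by PU.1 together with C/EBP and AP-1 factors, and growth factor receptors, among them the M-CSF receptor, keep signalling in resting cells. Those receptors act through the RAS-RAF-MEK-ERK cascade, which induces cyclin D1, MYC, ETV factors and its own inhibitors of the Sprouty, SPRED and DUSP families, and through PI3K, AKT and mTOR, which keep FOXO factors out of the nucleus. A ChIP value from many cells cannot tell fewer acetylated alleles or cells from less acetylation on each.

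Values were normalized read counts at 59190 CREs on mm10 (GRCm38), of which 59086 had a mean of at least 10 over the UT libraries and were tested. A CRE within 1 kb of a transcription start was called a promoter and any other distal, and distal CREs are named here by the gene whose intron holds them where that is stated and otherwise by the nearest gene start, neither of which need be the gene they act on. Differences are on the log2(value + 5) scale.

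The libraries differed in quality in a way that followed their place in the table. The columns fall into 6 stretches of 8 to 10 CKIs, called column runs below. The contrast of a library, the median of its strongest 10% of CREs over that of its weakest 10%, was 7.27 to 64 in the CKI libraries with a median of 24.5, against 100 and 134 in DMSO. Run medians were between 19.9 and 22.4 in runs 1, 2, 3 and 6, and 43.8 and 42.9 in runs 4 and 5. The spacing of the rounded values gave what 1 read was worth in 66 of 73 CKI libraries and put reads within CREs at 700000 to 4930000, with the lowest run medians in runs 2 and 1 (1260000 and 1450000). All CKI columns lie in runs and no DMSO column does, so run and CKI can be separated only between CKIs of 1 run, and DMSO cannot be told apart from the runs at all. Libraries of the same CKI correlated at a median of 0.934 (15 pairs across CREs, which are not independent), different CKIs of 1 run at 0.917 and of different runs at 0.898. By run, same-CKI and different-CKI pairs had medians of 0.874 and 0.867 in run 1, 0.923 (1 pair) and 0.928 in run 3, and 0.862 and 0.890 in run 6. In run 5, where 8 pairs lie, they were 0.957 and 0.956. Of the 30 libraries of CKIs with 2, the closest library of the run was that of the same CKI for 2. In run 5 the libraries with suffix b differed from those without it at 9141 CREs, whereas 2 CREs differed among the CKIs of that run. In the tests among CKIs and of single CKIs the spread comes from the 15 CKIs with 2 libraries, 8 of them in run 5 (and from the 2 DMSO libraries in comparisons with DMSO), and the 43 CKIs with 1 library are assumed to vary like them. The class tests use the spread between CKIs. The stimulus labels held. For each stimulus, 70 UT libraries had a 4 h library of the same CKI, though not the same 70 for LPS and IL-4. All 70 lay on the unstimulated side, by the median over the CREs that the stimulus raised or lowered in DMSO.

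The first question was which CREs differed among CKIs in resting cells. H3K27ac differed among CKIs at 14973 of 59086 CREs, which is 25.3%, by limma's moderated F-test (adjusted p under 0.05). With the mean of each run removed, 1147 CREs, or 1.94%, were called. The share called rose with signal, from 8.56% in the weakest 10% of CREs to 47.2% in the strongest, and from 0.135% to 5.7% within runs. The 1147 CREs held fewer promoters than all CREs (13.2% against 18.2%), more CREs that lost H3K27ac after LPS in DMSO (24.2% against 10%) and more that lost it after IL-4 (16.1% against 2.93%). Their median level was 167, against 54 over all tested CREs, and shares at matched level were not taken. Measured again in the stimulated libraries of the same CKIs, differences among CKIs at these CREs had a median correlation with the UT differences of 0.28 in IL-4 and 0.13 in LPS, against 0.07 and 0.05 over all CREs, with run means removed. Those correlations run over CKIs that share runs and chemistry and are given as a description.

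Apart from markers of other cells, the ERK pathway feedback genes varied most among CKIs of the gene lists examined. The lists were chosen with earlier results of these data known, so this ranking is a description. Of 14 ERK pathway feedback genes, 13 had a promoter CRE, and 10 of these differed among CKIs (76.9%, against 24.5% of 10265 promoter CREs of all genes). Within runs 8 of the 13 were called, against 1.41% of all promoter CREs of genes. In the strongest 10% of all CREs, 47.2% were called among CKIs and 5.7% within runs. The median over the list varied among CKIs with an SD of 0.36, whereas the 19 other macrophage and housekeeping lists had SDs of 0.10 to 0.23. The list was lowest with Apatinib (-1.0), Vatalanib (-0.96), BMS911543 (-0.94), OSI930 (-0.90), Omipalisib and PF04691502 (both -0.86) and X396 (-0.78), then with Pimasertib (-0.59) and BGT226 (-0.53). It was highest with PH797804 (0.45) and MK2206 (0.36). These CKIs carry different designated targets, which need not be the kinase whose binding set the dose: Apatinib, Vatalanib and OSI930 are VEGF receptor inhibitors, BMS911543 a JAK2 inhibitor, Omipalisib, PF04691502 and BGT226 PI3K-mTOR inhibitors, X396 an ALK inhibitor, Pimasertib a MEK inhibitor, PH797804 a p38 inhibitor and MK2206 an AKT inhibitor.

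Spred2, a membrane-bound inhibitor of RAF activation, had the largest SD among CKIs of the 13 (0.79). Its promoter (chr11:19923288-19926965) held 57 to 794 normalized reads over the 73 CKI libraries with a median of 458, and 389 and 446 in DMSO (adjusted p = 9.81e-12, within runs 6.81e-09). It measured 91 and 57 in the BMS911543 libraries, 78 with Vatalanib, 89 with OSI930, 98 with Apatinib, 101 with X396, 130 with Pimasertib and 145 with Omipalisib. All of these were under both DMSO libraries, while MK2206 gave 794 and PH797804 638. The 7 CKIs lowest over the list lie in column runs 1 and 2, the shallowest, and the part of depth in these levels was not tested. In run 1 the low CKIs held 57 to 145 and AZD2014, AZD8186, AMG208, Filgotinib and Afatinib 334 to 618. The deepest CKI of that run was Vatalanib with 3350000 reads, and the shallowest was Afatinib with 732000. Etv5, an ETS factor downstream of receptor tyrosine kinases, followed the same CKIs. Its promoter (chr16:22438840-22440824) ranged from 39 to 485 with a median of 297 (DMSO 259 and 287, adjusted p = 1.04e-11, within runs 4.48e-09). The lowest values were 39 with OSI930, 63 and 57 with BMS911543, 69 with Vatalanib, 79 with Omipalisib, 84 with X396 and 91 with Apatinib.

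Ccnd1 encodes cyclin D1, which carries mitogen signals into the G1 phase. Its promoter (chr7:144938986-144942537) ranged from 71 to 848 with a median of 448 (DMSO 357 and 384, adjusted p = 2.7e-09, within runs 4.69e-06), with 71 in Omipalisib, 117 in OSI930, 118 in Apatinib, 124 in X396 and 155 in Vatalanib. PH797804 had the highest value, 848. The phosphatase genes Dusp4 and Dusp6, whose products inactivate MAP kinases, were called too. Dusp4 ranged from 50 to 467 around 271 (adjusted p = 4.64e-06, within runs 0.000492). Dusp6, the main ERK phosphatase, was strong throughout, from 432 with Apatinib to 1122 around a median of 921 (adjusted p = 9.2e-06, within runs 0.00205). DMSO gave 955 and 1096 for Dusp6, above the 445 to 528 of BMS911543, OSI930, Vatalanib and X396. Spred1 (105 to 479), Phlda1 (32 to 300), Etv1 (190 to 598), Epha2 (26 to 181) and Dusp5 (82 to 208) were also called among CKIs, of which Epha2 (adjusted p = 0.121) and Dusp5 (0.211) were not called within runs. Spry1, Spry4 and Etv4 missed the threshold, with adjusted p of 0.0602, 0.0864 and 0.177.

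Genes next to this pathway followed in part. Myc, a transcription factor of growth and metabolism, had a promoter CRE of 206 to 915 around 679 (DMSO 581 and 669, adjusted p = 4.39e-09, within runs 6.23e-06), and its lowest values were 206 with OSI930, 220 with Omipalisib, 236 with X396 and 256 with Vatalanib. The promoter of Ccnd2, which encodes cyclin D2, ranged from 55 to 291 around 175 (adjusted p = 9.18e-07, within runs 0.0033). Ccl2 and Ccl7 are neighbouring genes for monocyte-attracting chemokines. The Ccl2 promoter ranged from 14 to 176 around 104 (adjusted p = 7.9e-06, within runs 0.00415), and the lowest libraries were BMS911543 (14), Vatalanib (16), Omipalisib (20), X396 and OSI930 (both 28). The Ccl7 promoter ranged from 33 to 212 (adjusted p = 0.00021, within runs 0.0319) and was lowest with OSI930 (33) and X396 (39).

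**Figure D1:**
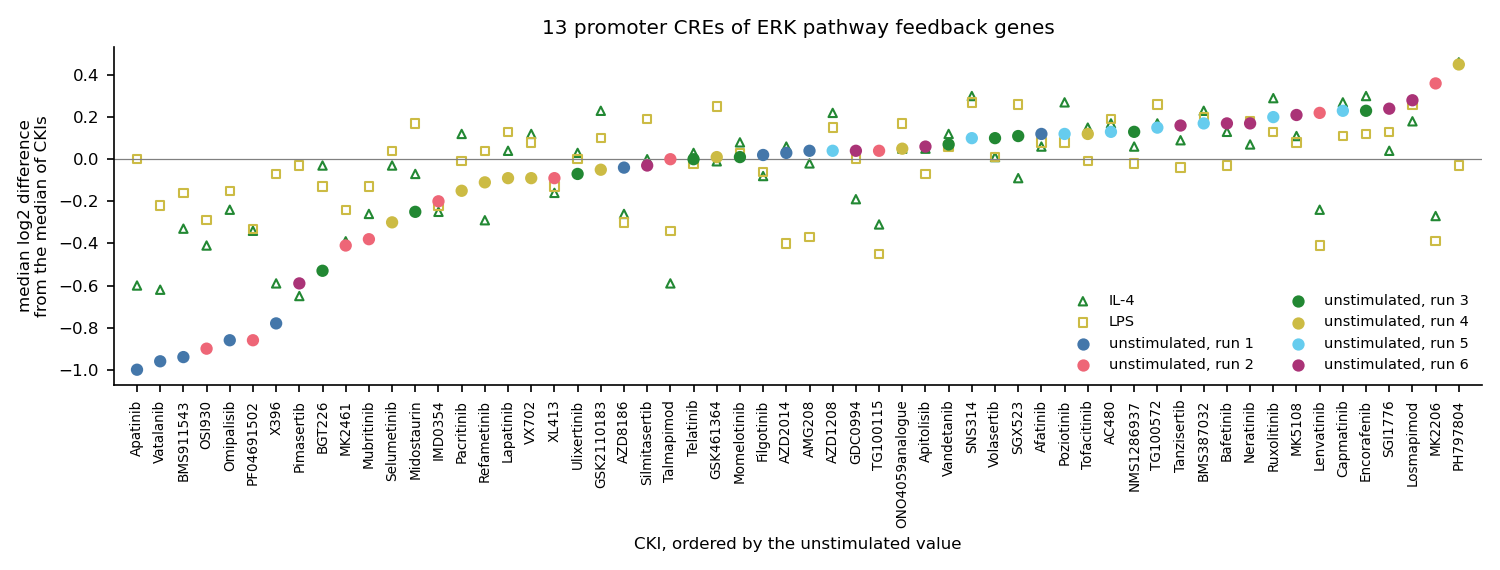
Median log2 difference from the median of the CKIs over the 13 promoter CREs of ERK pathway feedback genes, for each CKI in order of its unstimulated value. Filled points are unstimulated libraries coloured by column run and open points are the LPS and IL-4 libraries of the same CKI. Unstimulated values run from -1.0 with Apatinib to 0.45 with PH797804, and the LPS values of the lowest CKIs lie closer to 0.

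The CKIs that were low at rest were in part low after stimulation. In the IL-4 libraries of the same CKIs, the list medians were -0.60 for Apatinib, -0.62 for Vatalanib, -0.33 for BMS911543, -0.41 for OSI930, -0.24 for Omipalisib, -0.34 for PF04691502, -0.59 for X396 and -0.65 for Pimasertib. In the LPS libraries they were between 0.00 and -0.33 for all 8. Over the 58 CKIs the UT list median correlated with that in IL-4 at 0.72 and with that in LPS at 0.33, as a description. At Spred2 the differences in UT, IL-4 and LPS were -2.45, -1.09 and -0.21 for Vatalanib and -1.75, -1.39 and -0.04 for Pimasertib, so that in LPS both lay near the median of the CKIs.

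The inhibitors aimed at this cascade itself did not share 1 level. Among the CKIs with RAF, MEK or ERK as target, the list median was -0.59 for Pimasertib, -0.30 for Selumetinib and -0.11 for Refametinib, all MEK inhibitors, -0.07 for Ulixertinib and 0.04 for GDC0994, both ERK inhibitors, and 0.23 for the BRAF inhibitor Encorafenib. As a class of 6 they gave 0 called CREs by limma against the other CKIs (544 higher and 623 lower at an unadjusted p under 0.05). At Spred2 the MEK inhibitors measured 130, 343 and 417 for Pimasertib, Selumetinib and Refametinib. Their doses were set by in vitro binding to an intended kinase, and whether inhibition in the cells was equal is not known.

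By class, 12 of the 13 promoters had a difference under 0 in the VEGF receptor class and 0 of 13 in the p38 class. The median difference of the list was -0.58 for the 6 VEGF receptor inhibitors, 0.35 for the 4 p38 inhibitors and -0.17 for the 7 PI3K-mTOR inhibitors, beside medians over all tested CREs of 0.00, 0.21 and -0.02. By limma 0 of the 13 promoters were called in any class contrast, and at an unadjusted p under 0.05 there were 10 in the VEGF receptor class, 2 in the p38 class and 2 in the PI3K-mTOR class.

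The 20 CREs that varied most among CKIs were taken from 1043 CREs that met the naming rule, and are described in 2 kinds by their level in DMSO. In the first, DMSO lay within the range of most CKIs and a few CKIs were low. A CRE 115 kb from Ccnd2 (chr6:127265173-127267165) ranged from 0 to 260 around a median of 136, with 98 and 78 in DMSO (adjusted p = 4e-11, within runs 3.17e-06). X396 was listed at 0, where 3 reads would read 16.9, which places it at least 8.08-fold lower than the median of the other CKIs. Omipalisib gave 8, Vatalanib 10 and OSI930 11, and Bafetinib the highest value of 260. The SD among CKIs was 1.13, against a spread of 0.32 between libraries of the same CKI.

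A CRE 131 kb from Ets2 (chr16:95832579-95834461) ranged from 14 with Vatalanib to 403 with PH797804 around 231, and measured 211 and 230 in DMSO (adjusted p = 2.32e-12, within runs 5.78e-09). Ets2 encodes an ETS factor that ERK phosphorylates. A CRE 59.2 kb from Psmg1 on the same chromosome (chr16:95930816-95932625) ranged from 17 with X396 to 360 around 184. A CRE 101 kb from 1810010D01Rik, on the same chromosome as the Ccnd1 promoter (chr7:145105500-145108576), ranged from 56 with Apatinib to 672 around 371, and had the smallest adjusted p of the 20 (1.09e-13, within runs 3.5e-10). The Ccl2 CRE at 2.9 kb from the start (chr11:82031451-82033894) ranged from 6 with X396 to 218 around 124, with 114 and 71 in DMSO. The CREs near Gsdmc (8 with Omipalisib to 294), in an intron of the sialyltransferase gene St3gal6 (0 to 195), near the chromodomain gene Cdyl (0 to 189) and near Rgs13 (16 with Vatalanib to 300) were of the same kind.

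Near Lpl, which encodes the lipoprotein lipase that frees fatty acids from triglycerides, a CRE at 34.2 kb (chr8:68913885-68915510) ranged from 0 to 161 around 88, with 81 in both DMSO libraries (adjusted p = 1.89e-07, within runs 3.48e-05). PF04691502 was listed at 0 there and at the St3gal6 CRE, where 3 reads would read 25.6, at least 3.44-fold and 4.53-fold lower than the median of the other CKIs. That library was among the shallowest, with 810000 reads. Across the 20 CREs the same CKIs recurred at the low end. X396 and Omipalisib were among the 5 lowest CKIs at 13 of the 20, BMS911543 at 11, Vatalanib at 10, OSI930 at 6 and PF04691502 at 5.

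In the second kind, DMSO was itself weak. The CRE in an intron of Smo (chr6:29747124-29749715), the signal transducer of Hedgehog, ranged from 43 to 1838 around 338 but held 26 and 8 in DMSO (adjusted p = 1.93e-07, within runs 0.0209). Lama1 (28 to 742, DMSO 37 and 27), Gm525 (13 to 643, DMSO 19 and 18), Igf2bp3 (13 to 473, DMSO 4 and 3), Tbc1d14 (11 to 358, DMSO 17 and 16), Heatr9 (26 to 345, DMSO 11 and 5) and Gpr12 (7 to 563, DMSO 43 and 27) had CREs of this kind, of which those of Lama1, Igf2bp3, Tbc1d14, Heatr9 and Gpr12 were highest in the Talmapimod library. The contrast of that library was 7.27, the lowest of all. Whether the library quality accounts for these levels was not tested.

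**Figure D2:**
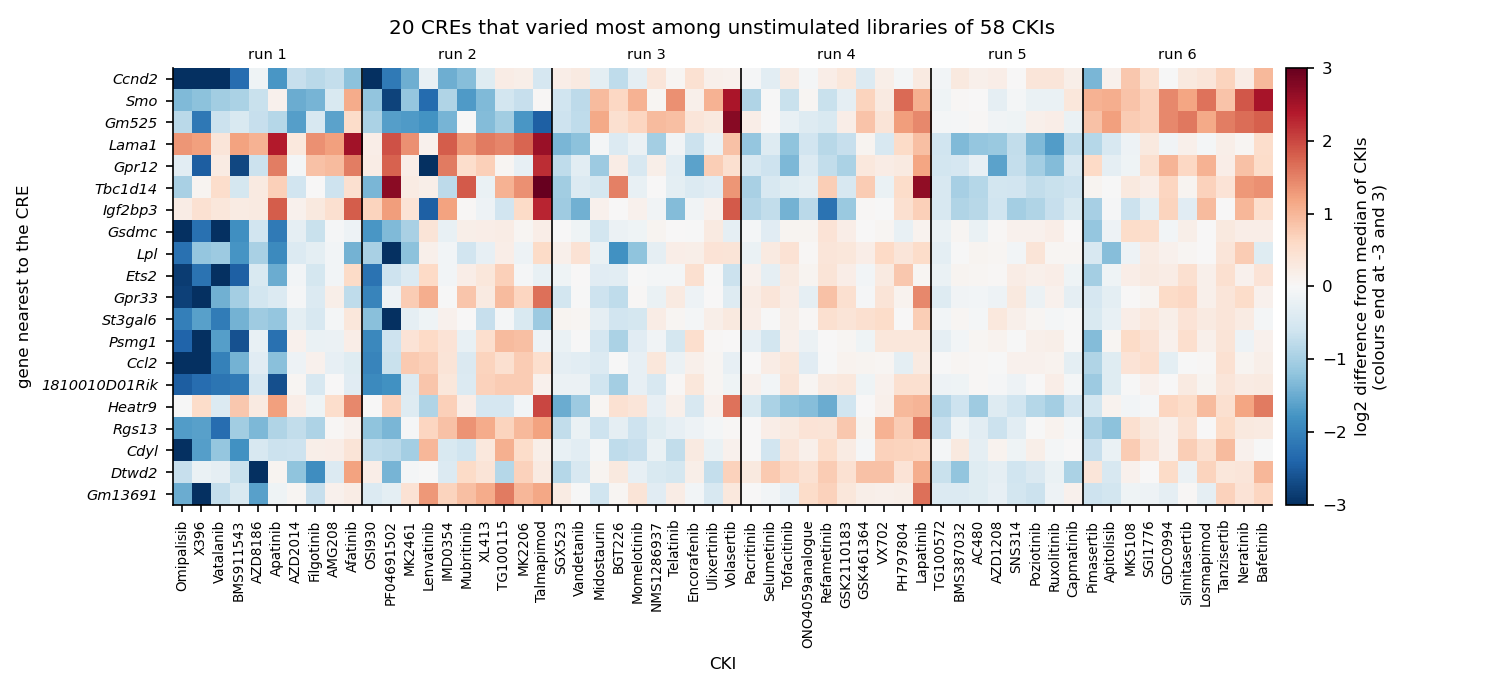
Log2 difference of each of the 58 CKIs from the median of the CKIs at the 20 most variable CREs (rows, named by nearest gene) in unstimulated libraries, with CKIs ordered by column run. Blue cells are low: X396, Omipalisib, BMS911543 and Vatalanib are low at most CREs from Ccnd2 to Cdyl, and Talmapimod has the highest value at Lama1, Gpr12, Tbc1d14, Igf2bp3 and Heatr9.

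The differences at these CREs recurred after stimulation to unequal degrees. Over the 58 CKIs, the UT difference correlated with that in IL-4 and in LPS at 0.74 and 0.76 for the Ccnd2 CRE, 0.51 and 0.52 for Ets2, 0.61 and 0.41 for Lpl, 0.70 and 0.35 for Gsdmc, 0.70 and 0.33 for Psmg1 and 0.47 and 0.24 for Ccl2. Cdyl had 0.23 and -0.08. Of the CREs that were weak in DMSO, Lama1 had 0.80 and 0.71, Smo 0.59 and 0.65, Igf2bp3 0.29 and 0.38 and Gpr12 0.19 and 0.22. These correlations are descriptions over CKIs that share runs. The 5 CKIs that were lowest at rest were all under the IL-4 median at the Ccnd2, Ets2, Gsdmc and Lpl CREs.

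The PI3K-mTOR inhibitors were the class with most CREs called. PI3K makes the lipid that recruits AKT to the membrane, and mTOR is the kinase of growth that this pathway and amino acids switch on. Against the other CKIs, the 7 CKIs of the class had 110 CREs higher (0.186% of those tested) and 455 lower (0.77%) by limma at an adjusted p under 0.05. With the run as a term the counts were 62 and 441, and 38 of the higher and 257 of the lower CREs were called both ways. The called CREs were mostly distal, with promoters at 7.69% of the lower and 12.7% of the higher CREs against 18.2% of all tested. LPS-lost CREs made up 24.2% of the lower and 40.9% of the higher CREs, against 10% of all. The lower and higher CREs had median levels of 160 and 158, against 54 over all tested, and shares at matched level were not taken. At 172 of the lower and 55 of the higher CREs all 7 CKIs lay on the same side of the other CKIs. These counts use the values that chose the CREs, and the share over all tested CREs was not taken. They are a description and do not show that the CKIs of the class acted alike.

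The 7 CKIs did not respond equally. Their median difference at the 455 lower CREs was -1.13 with Omipalisib, -0.98 with PF04691502, -0.61 with BGT226, -0.49 with AZD8186, -0.46 with AZD2014, -0.27 with Apitolisib and -0.10 with TG100115, the last an inhibitor of the gamma and delta forms of PI3K. By the study's methods the dose of Apitolisib was set for JAK1, not for its designated target. These values are those that chose the CREs and are a description. The counts rest on single libraries: without Omipalisib 11 higher and 56 lower CREs were called, without PF04691502 12 and 92, and without TG100115 359 and 957. Without BGT226 or AZD2014 37 and 63 higher CREs were called. Outside the class, X396 (-0.44), BMS911543 (-0.37), OSI930 (-0.31) and Vatalanib (-0.30) were low at these CREs, while the AKT inhibitors MK2206 and GSK2110183 had medians of -0.10 and 0.21.

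The same CREs were then measured in the stimulated libraries of the class, which the choice did not use. Of the 455 lower CREs, 47 were called lower in IL-4 (10.3%, against 0.23% of all tested CREs) and 429 had the same direction, with a median of -0.24. In LPS 70 were called (15.4%, against 3.23%), 362 had the same direction and the median was -0.179. Of the 110 higher CREs, 6 were called higher in IL-4 (5.45%, against 0.0322%) and 3 in LPS (2.73%, against 0.801%), and 107 and 78 had the same direction. Their medians were 0.215 in IL-4 and 0.0932 in LPS, beside 0.062 and 0.0516 over all CREs. As the medians over all CREs are positive, most CREs were higher in the class after either stimulus. The share of all CREs in each direction was not taken, so the counts with the same direction are a description. With the run as a term, 45 of the lower CREs were called in IL-4 and 10 in LPS (254 and 150 of all 59086 CREs, or 0.43% and 0.254%), and 3 of the higher CREs in each (37 and 21 of all, or 0.0626% and 0.0355%).

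Among the lower CREs, one 82.2 kb from Atp6v1b2, a subunit of the vesicular proton pump (chr8:69003986-69008985), differed by -1.18 ± 0.19 (SE, adjusted p = 0.000183). It measured 260 and 233 with Apitolisib, 288 with AZD2014, 237 with AZD8186, 161 with BGT226, 67 with Omipalisib, 119 with PF04691502 and 452 with TG100115. The 65 libraries of other CKIs ranged from 124 to 764 around 476, and DMSO gave 482 and 478, so all 7 CKIs lay under both DMSO libraries, with TG100115 closest to them. A CRE in an intron of Myo1e, a myosin of the cell cortex (chr9:70327558-70329386, nearest start Ccnb2), differed by -1.22 ± 0.17 (adjusted p = 1.7e-05). It gave 82 and 78 with Apitolisib, 109 with AZD2014, 45 with AZD8186, 70 with BGT226, 47 with Omipalisib, 26 with PF04691502 and 138 with TG100115, where the other CKIs ranged from 67 to 292 around 152 and DMSO gave 164 and 159.

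By nearest gene, the lower CREs were most numerous at Nrp1, a co-receptor for semaphorins and VEGF, with 7 CREs, at Lpp with 6, and at Lpl, Tprg and 1810010D01Rik with 5 each. Igf1, the growth factor gene, and Atf3, a stress-induced repressor, were among those with 4. Counts by gene in this paragraph were not set beside the number of CREs tested near each gene. They therefore do not show a preference for these genes. Single lower CREs lay near Tlr4, the LPS receptor (-1.22), Nfkbiz, an inducible NF-kB cofactor (-1.04), Myc (-0.95), Phlda1 (-0.91), Spry2 (-0.73) and Dusp10 (-0.70). Of the 110 higher CREs, 3 lay at Foxp1 and 2 each at Fcgr3, Pim1, Crlf3, Sgms1, Pde4b, Txndc2 and Pdhx. A CRE in an intron of the laminin gene Lamc1 (chr1:153298784-153301416) was higher by 0.76 ± 0.15 (adjusted p = 0.0019). Its values were 162 and 216 with Apitolisib, 179 with AZD2014, 192 with AZD8186, 240 with BGT226, 267 with Omipalisib, 273 with PF04691502 and 188 with TG100115, against 65 to 281 around 119 in other CKIs. Single higher CREs lay near Deptor, an mTOR inhibitor (0.62), Sgk1, a kinase related to AKT (0.62), Ccnd3 (0.81), the Polycomb gene Cbx7 (0.60) and Klf9 (0.39). These genes were picked from the called CREs after their values were seen.

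The letters of the CREs were searched next, with 8 sets chosen after the calls of the class were seen. FOXO factors are known to enter the nucleus when PI3K and AKT are inhibited. These 8 sets of letters, 1 for each of 8 factor families, were looked for on both strands of the 300 bases at the centre of each distal CRE. The FOXO letters GTAAACA were found in 23 of the 96 higher distal CREs (24%), in 11 of the 420 lower ones (2.62%), and in 4.01% of all 48327 distal CREs, or 4.08% of the 11458 with a mean of at least 100. With the run as a term in the class contrast, 4 of 44 higher distal CREs held them (9.09%), and with the contrast of each library as a covariate 31 of 163 (19%). The MEF2 letters, CTA and TAG with any 4 bases between them, were found in 51 of the 420 lower distal CREs (12.1%), in 4.17% of the higher ones and in 5.58% of all, and in 9.95% of the lower CREs with the run as a term. MEF2 factors act in macrophages in metabolic and inflammatory genes. The remaining letters were found as follows: TGANTCA of AP-1 at 25.5% of lower and 16.7% of higher CREs against 23.5%, GAGGAAGT of PU.1 at 11.9% and 10.4% against 10.4%, TTGCNNAA of C/EBP at 17.6% and 16.7% against 16.2%, CACGTG of the E-box at 5% and 7.29% against 4.95%, CCGGAAGT of ETS at 0.952% and 0% against 0.61%, and TGACGTCA of CREB at 0% and 2.08% against 0.503%. Over the 11458 distal CREs with a mean of at least 100 the shares were 4.84% for MEF2 and 19.7% for AP-1. They were 9.47% for PU.1, 15.3% for C/EBP, 5.9% for the E-box, 0.812% for ETS and 0.445% for CREB. A match is a run of letters and does not show that a factor was bound.

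Of the 23 higher CREs with GTAAACA, the 3 with the smallest adjusted p are printed, together with the Lpl CRE described above, a lower CRE that holds the MEF2 letters. They are the central 300 bases of each CRE on the plus strand of GRCm38, and capitals mark the FOXO or MEF2 letters on either strand.
Igf1r intron, chr7:68129498-68129797: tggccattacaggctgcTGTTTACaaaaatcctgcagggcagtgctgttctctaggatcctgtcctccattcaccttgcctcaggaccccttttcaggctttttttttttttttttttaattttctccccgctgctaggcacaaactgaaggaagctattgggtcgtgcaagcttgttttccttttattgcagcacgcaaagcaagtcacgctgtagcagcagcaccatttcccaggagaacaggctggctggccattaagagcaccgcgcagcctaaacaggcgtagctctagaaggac
Lrrc8a intron, chr2:30242635-30242934: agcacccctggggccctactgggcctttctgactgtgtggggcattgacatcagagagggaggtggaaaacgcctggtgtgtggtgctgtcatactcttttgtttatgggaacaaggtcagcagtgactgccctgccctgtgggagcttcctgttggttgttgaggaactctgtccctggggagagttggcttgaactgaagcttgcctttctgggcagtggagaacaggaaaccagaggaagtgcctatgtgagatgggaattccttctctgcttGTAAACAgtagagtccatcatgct
Crtc3 intron, chr7:80628698-80628997: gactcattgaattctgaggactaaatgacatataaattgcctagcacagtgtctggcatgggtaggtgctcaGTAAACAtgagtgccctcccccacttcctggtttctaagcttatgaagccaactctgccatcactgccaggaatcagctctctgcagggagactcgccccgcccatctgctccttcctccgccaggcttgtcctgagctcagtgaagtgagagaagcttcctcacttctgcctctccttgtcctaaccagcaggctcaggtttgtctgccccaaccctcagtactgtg
Lpl distal, chr8:68914548-68914847: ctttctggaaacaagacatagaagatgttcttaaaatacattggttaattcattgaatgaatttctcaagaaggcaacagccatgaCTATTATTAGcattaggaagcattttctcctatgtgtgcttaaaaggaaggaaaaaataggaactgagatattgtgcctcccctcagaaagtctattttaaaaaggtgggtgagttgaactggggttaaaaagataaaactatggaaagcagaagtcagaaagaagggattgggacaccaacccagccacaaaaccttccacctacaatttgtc

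The CRE in an intron of Igf1r, the receptor gene for IGF1 and a gene of the FOXO response, has Pgpep1l as its nearest start. It measured 180 and 276 with Apitolisib, 274 with AZD2014, 216 with AZD8186, 225 with BGT226, 232 with Omipalisib, 248 with PF04691502 and 84 with TG100115. The other 65 CKI libraries ranged from 39 to 264 around 119, and DMSO gave 153 and 183. The class difference was 0.78 ± 0.17 (adjusted p = 0.00847, with the run as a term 0.0323), and TG100115 alone of the 7 lay under the median of the others. The CRE of Lrrc8a, a subunit of the volume-regulated anion channel, gave 95 and 170 with Apitolisib, 149 with AZD2014, 129 with AZD8186, 113 with BGT226, 204 with Omipalisib, 154 with PF04691502 and 92 with TG100115, against 39 to 197 around 79 in the others (0.69 ± 0.16, adjusted p = 0.00989, with the run as a term 0.0984). All 8 libraries of the class were above the median of the others there. At Crtc3, which encodes a CREB coactivator, they gave 217, 223, 301, 213, 168, 314, 307 and 188 in the same order, against 96 to 273 around 168 (0.50 ± 0.12, adjusted p = 0.0152, with the run as a term 0.0839). The BGT226 library was at that median and the others above it. DMSO gave 77 and 81 at the Lrrc8a CRE, and 229 and 219 at the Crtc3 CRE, where it lay within the range of the class.

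The Lpl CRE described above held 50 and 25 with Apitolisib, 69 with AZD2014, 45 with AZD8186, 23 with BGT226, 16 with Omipalisib, 0 with PF04691502 and 107 with TG100115 (-1.42 ± 0.27, adjusted p = 0.00167, with the run as a term 0.0197). There TG100115 was the only CKI of the class above the median of 88 in the others.

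At the 23 higher CREs with GTAAACA the median difference was 0.86 with PF04691502, 0.77 with BGT226, 0.63 with Omipalisib, 0.62 with AZD2014, 0.52 with AZD8186, 0.44 with Apitolisib and -0.02 with TG100115. The 73 higher distal CREs without the letters had 0.74, 0.68, 0.60, 0.50, 0.36, 0.33 and 0.07 in the same order, and the class difference had medians of 0.60 with and 0.49 without them. At the CREs with the letters it was 0.61 with OSI930, 0.56 with Vatalanib and 0.50 with BMS911543, which are outside the class, and -0.27 and -0.31 with the AKT inhibitors MK2206 and GSK2110183. In the IL-4 libraries, which did not choose these CREs, the medians were 0.49 with Omipalisib, 0.48 with BGT226, 0.28 with AZD2014, 0.26 with Apitolisib, 0.23 with PF04691502 and AZD8186 and 0.12 with TG100115. In the LPS libraries they were 0.37, 0.35, 0.33, 0.33, 0.00, 0.13 and -0.12 in that order. The higher distal CREs without the letters had IL-4 medians of 0.40, 0.39, 0.19, 0.10, 0.14, 0.11 and 0.07 in that order. Outside the class, IL-4 medians at the CREs with the letters ran from -0.41 with GSK2110183 and GSK461364 to 0.58 with Mubritinib. Among them were 0.38 with BMS911543, 0.37 with X396 and 0.17 with MK2206. Over all strong distal CREs the shift with these letters was small. Of the 468 that held GTAAACA 57.1% were above 0 in the class contrast, against 43.1% of the 10990 without, with medians of 0.03 and -0.03.

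The promoters of a list of FOXO and insulin pathway genes did not move as a group in the class. Of 18 with a promoter CRE, 0 were called by limma in the class contrast (2 at an unadjusted p under 0.05), and their median difference was 0.07 beside -0.03 over all promoter CREs of genes. The sterol and fatty acid synthesis genes, which SREBP factors drive downstream of mTOR, had 17 of 18 promoters under 0 in the class (6047 of all 10265) with a median of -0.16, and again 0 of 18 were called (2 at an unadjusted p under 0.05). Of these 18, 8 were called among CKIs (24.5% of all promoters) and 1 within runs (1.41% of all), Hmgcs1, the synthase that makes HMG-CoA for the mevalonate pathway. Its promoter (chr13:119689245-119691301) ranged from 114 with Vatalanib to 383 with PH797804 around 259 (DMSO 260 and 276, adjusted p = 0.000104, within runs 0.00591). The list median was lowest with Mubritinib (-0.58), OSI930 and PF04691502 (both -0.54) and Omipalisib (-0.52), and highest with Afatinib (0.36) and PH797804 (0.30).

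The other classes gave few calls, each tested by limma against all other CKIs. JAK inhibitors (6 CKIs) had 0 called CREs (74 higher and 1352 lower at an unadjusted p under 0.05), as had cell cycle kinase inhibitors (343 and 692), PIM and CK2 inhibitors (222 and 133) and MET inhibitors (194 and 1739). ERBB inhibitors had 1 lower CRE, the promoter of 4833420G17Rik (chr13:119461841-119463525, -0.54, adjusted p = 0.0308), which held 74 with Afatinib and 189 at most in the class, against 127 to 257 around 175 in the others. The p38 inhibitors had 2 lower CREs (9497 higher and 1252 lower at an unadjusted p under 0.05). One lay in an intron of Abcc3, an organic anion exporter (chr11:94385541-94387424, -0.61, adjusted p = 0.00672), with 268 and 335 for Losmapimod, 276 for PH797804, 166 for Talmapimod and 329 for VX702, against 284 to 503 around 408. The other lay near Dhx40 (-1.36, adjusted p = 0.00037) in sequence of which 84.7% occurs elsewhere in the genome, where read placement is uncertain. Without VX702 the p38 counts were 465 higher and 118 lower, and without Talmapimod 0 and 0, so the p38 calls rest on Talmapimod and change with VX702.

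The VEGF receptor inhibitors had 1 higher and 5 lower CREs (1252 and 2182 at an unadjusted p under 0.05). A CRE 49.1 kb from Usp6nl, a GTPase activator of RAB5 (chr2:6272819-6274391), was lower by -1.10 ± 0.20 (adjusted p = 0.0179, with the run as a term 0.03). It gave 21 with Apatinib, 10 with Lenvatinib, 6 with OSI930, 17 with Telatinib, 29 with Vandetanib and 31 with Vatalanib, against 19 to 85 around 42 in the others, and 20 and 17 in DMSO. The DMSO values were within the range of the class. A CRE 40.1 kb from Map4k3 (-1.17, adjusted p = 0.0479) and a higher one near Dennd4a (0.59, adjusted p = 0.0476, 216 to 317 in the class against 88 to 268) were not called with the run as a term. DMSO gave 51 and 27 at the Map4k3 CRE and 231 and 249 at the Dennd4a CRE, within the range of the class at both. Leaving out Apatinib, OSI930 or Telatinib left 0 and 0 calls.

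The remaining gene lists were described by counts, beside 24.5% of all promoter CREs called among CKIs and 1.41% within runs. Of 14 promoters of macrophage identity factors 5 were called among CKIs and 0 within runs (3 at an unadjusted p under 0.05), and of 17 of macrophage surface and lysosome markers 14 and 1, where 47.2% of the strongest 10% of CREs were called among CKIs. The one called within runs was that of Mertk, a receptor for apoptotic cells (106 to 334 around 236, within runs 0.0215). Within runs, the NF-kB feedback genes, alternative activation genes, ATF4, NRF2 and p53 targets, lysosome and autophagy genes, housekeeping genes and histone acetylation enzymes had 0 called promoters by limma. At an unadjusted p under 0.05 these lists had from 0 (p53 targets) to 5 (NRF2 targets). For the interferon-stimulated genes, 11 of 25 promoters were called and 1 within runs, Oasl2, which encodes an OAS-like antiviral protein. The Oasl2 promoter (chr5:114896605-114898594) ranged from 124 with Filgotinib to 470 with Lapatinib around 224 (adjusted p = 2.88e-06, within runs 0.0364), and DMSO gave 330 and 322. It measured 441 with Refametinib, 398 with VX702 and 390 with Selumetinib. The list median was highest with Refametinib (0.38), VX702 (0.31), GSK461364 (0.30), Lapatinib and Selumetinib (both 0.29), all of column run 4, and lowest with Momelotinib (-0.24), X396 (-0.22) and Filgotinib (-0.21). Momelotinib and Filgotinib are JAK inhibitors, while Ruxolitinib, Tofacitinib and Pacritinib were not among the lowest 6. The remaining JAK inhibitor, BMS911543, was left out of this comparison. Tofacitinib and Pacritinib are also of column run 4, so their levels cannot be told apart from the run. The list median in UT correlated with that in IL-4 at 0.80 over CKIs, as a description that contains the run effect.

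Abcg1, a cholesterol exporter induced by LXR, ranged from 126 with Vandetanib to 453 with Apatinib around 235 (within runs 0.00856). Il10, the gene of the anti-inflammatory cytokine IL-10, ranged from 162 to 557 around 420 (within runs 0.0401), and Fos from 296 to 726 around 530 (within runs 0.0349). Of markers of other blood and tissue cells, most had no CRE at their promoter: 1 of 12 T cell, 2 of 10 B cell, 3 of 12 neutrophil, 2 of 10 dendritic cell, 3 of 11 stromal and 1 of 10 erythroid and megakaryocyte markers had one. The median level of the neutrophil, stromal and B cell promoters was 28.4, 27.6 and 50.9, against 54 over all CREs and 446 for the macrophage surface and lysosome markers. The neutrophil and stromal list medians were highest in shallow libraries, with 1.44 and 1.13 for Talmapimod, whose contrast was lowest. Pf4, a chemokine gene used as a megakaryocyte marker, was strong here (255 to 605 around 482, DMSO 628 and 606, within runs 0.0252) and lowest with Omipalisib (255), Apatinib (258) and X396 (275).

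Single CKIs were each tested against the other CKIs. Summed over the 58 CKIs there were 32324 higher calls (0.943% of the tests) and 30810 lower calls (0.899%) at an adjusted p under 0.05 and a difference over 0.5. The median CKI had 34.5 calls and 9 CKIs had 0. Talmapimod had 19338 higher and 2652 lower calls, Afatinib 4837 and 2798, PF04691502 1363 and 4089, Omipalisib 364 and 3220, and BMS911543, with 2 libraries, 727 and 2298. The 3 CKIs with most calls held 55.6% of all calls, and 10 of the 12 with most were in column runs 1 and 2. Against CKIs of their own run alone the totals were 24324 higher and 19810 lower.

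Some promoters were listed at 0 in 1 library and present in all others. Slc9a7, an ion exchanger of the Golgi, was at 0 with Talmapimod against 51 to 184 around 118, which is at least 3.09-fold lower given a value of 38.4 for 3 reads. Spopl, an adaptor of a ubiquitin ligase, was at 0 with PF04691502 against 72 to 148 around 104, at least 4.08-fold lower. Trim38, a ubiquitin ligase of innate immunity, was at 0 with Afatinib against 28 to 168 around 69.5, at least 2.19-fold lower. Styx, a pseudophosphatase, was at 0 with MK2461 against 41 to 120 around 69.5, at least 3.72-fold lower. These libraries held 700000, 810000, 732000 and 1100000 reads, and limits of this kind cover counting error only. At the median of the other CKIs the CREs would have held 9.26, 12.3, 6.56 and 11.1 reads in them. Each CRE was picked as the largest fall of its CKI, and the limits make no allowance for that choice. At the CRE nearest Pla2g4a, 1019 kb away (chr1:148902507-148905076), BMS911543 gave 5 and 0 in its 2 libraries, against 8 to 289 around 60 and 158 and 154 in DMSO.

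Against DMSO the calls were many and mostly in 1 direction. Over the 58 CKIs there were 351967 higher calls (10.3% of the tests) and 55429 lower calls (1.62%), with a median of 2052 calls per CKI and a range from 10 with Vandetanib to 32986 with Talmapimod. The direction followed the strength of the CRE. In the weakest 10% of CREs 15.7% of tests were higher and 0.028% lower, and in the strongest 10% 1.84% were higher and 7.2% lower. With the contrast of each library as a covariate the counts were 10622 higher and 22129 lower. In that fit the slope on contrast comes only from the 15 CKIs with 2 libraries and from the DMSO pair. The contrast of DMSO (100 and 134) lies outside the CKI range of 7.27 to 64. These counts are therefore extrapolated and cannot decide the direction. Without DMSO replicate 2 there were 104534 higher and 19141 lower calls, and without replicate 1 178917 and 24492. The Smo CRE was called higher in 56 of 58 CKIs. A CRE 264 kb from Rasa1, a RAS GTPase activator (chr13:85552484-85554139), held 184 and 160 in DMSO and 0 to 188 around 52 in the CKI libraries, and was called lower in 14 CKIs. The 58 comparisons share the same 2 DMSO libraries, so they are not independent of each other.

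**Figure D3:**
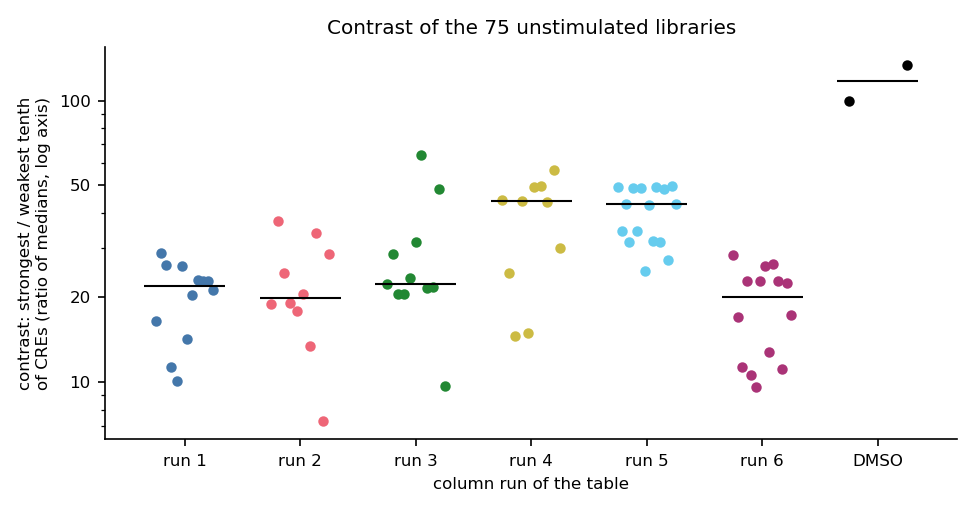
Contrast of each unstimulated library, the median of the strongest 10% of CREs over that of the weakest 10%, by column run. DMSO lies at 100 and 134, above all 73 CKI libraries, and runs 4 and 5 have medians of 43.8 and 42.9 against 19.9 to 22.4 in the other runs.

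The number of calls moved with library contrast. Over 58 CKIs, the contrast and the number of calls against DMSO had Pearson's r = -0.72 and Spearman's rho = -0.85 (permutation p = 1e-05 each, the smallest 100000 permutations can give), -0.75 without the 2 CKIs of most extreme contrast and -0.61 with run means removed. For calls against the other CKIs r was -0.38 (permutation p = 0.0048), rho -0.66 (permutation p = 1e-05), -0.40 without those 2 and -0.33 with run means removed (permutation p = 0.024, adjusted over 4 relations 0.027). Within run 5 rho was 0.29 and 0.63, opposite in sign to the pooled value, and in the other runs it was -0.76 to -0.96 for DMSO and -0.21 to -0.88 for the other CKIs. Estimated reads, in the 51 CKIs that had them, gave r = -0.65 and -0.43 (permutation p = 1e-05 each). Contrast and the effect of a CKI cannot be told apart in these counts, and the part of contrast in any single call was not tested.

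**Figure D4:**
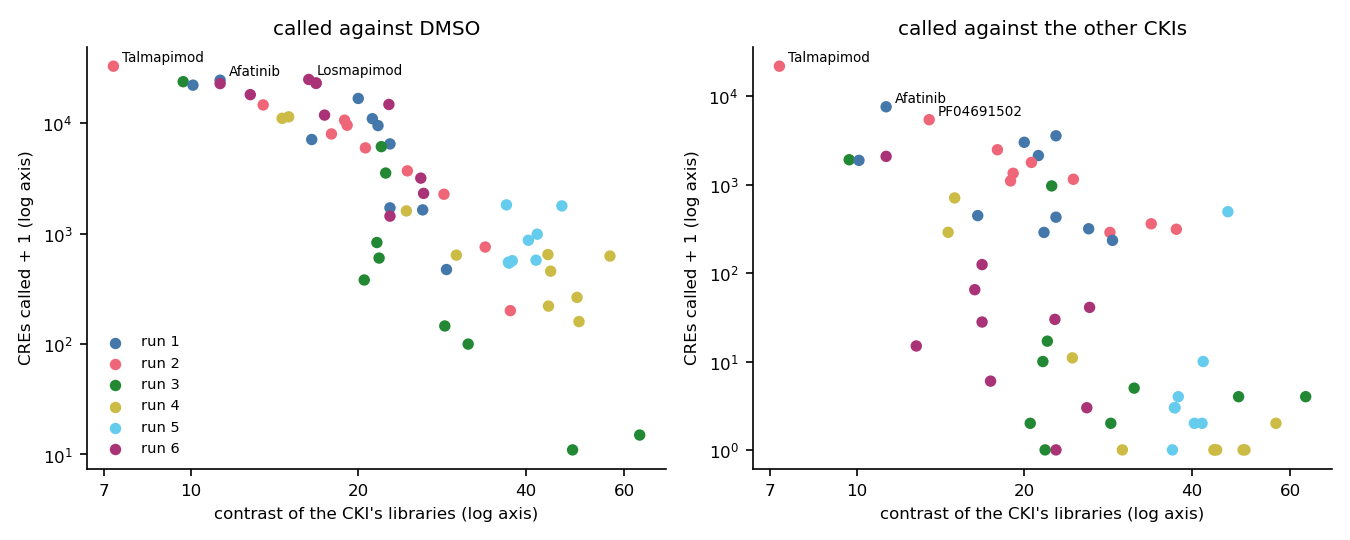
Number of CREs called for each CKI against DMSO and against the other CKIs, on a log axis, by the contrast of its libraries. Talmapimod, with the lowest contrast of 7.27, has 32986 and 21990 calls, and counts fall as contrast rises (rho = -0.85 and -0.66).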

How the data were processed

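H3K27ac ChIP-seq was measured in BMDMs treated with DMSO or 1 of 58 CKIs. Per the paper's methods, the authors trimmed single-end reads, mapped them to mm10 with ShortStack (the submitters' processing notes name Bowtie and SAMtools, without versions), counted reads around ATAC-seq summits and scaled libraries on invariant peaks. The deposited values are these normalized read counts rounded to whole numbers, a score that is no raw count, so no count model was run.

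CREs with a mean of at least 10 over the unstimulated libraries were tested on log2(value + 5) with limma 3.58.1 (R 4.3.3), libraries of a CKI sharing a coefficient (classes were tested on the mean of each CKI), with Benjamini-Hochberg adjustment over all CREs of a comparison. Calls needed an adjusted p under 0.05 and, for single CKIs, a difference over 0.5. On simulated data, the test of 7 CKIs against 51 recovered 92% and 98% of changes of 1 and -1 and 48% and 52% of 0.5 and -0.5, with 8 false calls among 59086 CREs. For a CKI with 1 library limma recovered 98% and 94% of changes of 2 and -2, and 38% and 54% of 1 and -1. The F-test recovered 28% and 30% of changes of 2 and -2 in 1 CKI with 1 library, with 88 false calls. With 2 libraries it recovered 70% and 76%, with 113 false calls. Simulated noise was independent between libraries, without column runs or differences in contrast or depth. The false calls therefore do not measure the error in these data.

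The spacing of values in a library gave the worth of 1 read where at least 99% of values fit it (66 CKI libraries, no DMSO library). A CRE listed at 0 was given the limit of 3 reads, which makes no allowance for the choice of that CRE among many. Values of the stimulated libraries are means of log2 over a CKI's time points, relative to the median of the CKIs. Nearest genes come from GENCODE on GRCm38, and sequences from that genome. Repeated sequence is the share of 51-base words found elsewhere in it.

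Named CREs were the 20 with the largest SD among CKIs that were called with and without the run term (mean of at least 50, under 20% repeated words, 1 per gene), for the 12 CKIs with most calls the largest rise and fall, the 10 largest mean differences from DMSO in each direction, up to 3 per class and direction with all CKIs on 1 side, and up to 4 called promoters per list. The CKI set, the 26 gene lists and the classes were chosen with earlier results of these data known, and the motifs, the contrast limit of 15, array weights, the suffix b term and further genes of the PI3K-mTOR class after the data were seen.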

Additional observations from a re-analysis of the deposited data

How the results depend on the processing

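No paired analysis was possible because only the DMSO titles carry replicate numbers, which no CKI title shares, and the suffix b, of unstated meaning, was fitted as a term in run 5 alone. The called counts depended on the processing. CREs differing among CKIs numbered 1147 with the column run as a term, 9578 after quantile normalization, 8338 without the libraries of contrast under 15, 13 in run 5 with suffix b as a term (2 without it), and 11002 to 22320 with 1 library left out. Calls against the other CKIs were 19810 lower within the same run. Higher calls were 50499 with a pseudocount of 20, 14580 at a mean of at least 50, 9033 with contrast as a covariate, 8618 without the low-contrast libraries and 14488 without Talmapimod, and lower calls 17433 at a log2 difference over 1. Quantile normalization gave 20495 higher and 46560 lower, and leaving out 1 library 29029 to 43506 higher and 28198 to 36339 lower. Calls against DMSO were 80642 higher at a mean of at least 50, 20818 higher after quantile normalization, 10622 higher and 22129 lower with contrast as a covariate, and 19301 lower at a log2 difference over 1. Leaving out 1 library gave 104534 to 399013 higher and 19141 to 62504 lower calls, the smallest without DMSO replicate 2. With contrast as a covariate the CREs near Hjurp, Haus8 and Grk5 turned from higher to lower than DMSO (-0.32, -0.60 and -0.55). The contrast of DMSO lies outside the range of the CKI libraries, so differences from DMSO with this covariate are extrapolated. The causes were not tested.

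For the PI3K-mTOR class, higher and lower counts were 189 and 718 with contrast as a covariate and 188 and 283 with array weights. There were 62 higher CREs with the run as a term, 68 with run and contrast, 189 at a mean of at least 50, and 261 lower after quantile normalization. Leaving out 1 CKI gave 11 to 359 higher and 56 to 957 lower. The p38 class had 262 and 93 with the run as a term, 1 and 6 with contrast, 16 and 182 after quantile normalization, and lower counts of 1 with run and contrast, 5 with array weights and 0 without Talmapimod. Leaving out 1 CKI gave 0 to 465 higher and 0 to 118 lower. The VEGF receptor class had 0 and 1 with the run as a term, 0 and 2 with run and contrast, and 0 and 0 with a pseudocount of 20 or array weights. Its lower counts were 8 with contrast, 2 at a mean of at least 50, 1 after quantile normalization and 3 without Talmapimod, and leaving out 1 CKI gave 0 to 2 higher and 0 to 11 lower. The ERBB class had 2 lower CREs with the run as a term, 0 with array weights and 0 to 2 with 1 CKI left out. The MET class had 1 lower CRE with contrast, with or without the run, 5 with a pseudocount of 1, and 12 higher and 108 lower with array weights, which gave the PIM and CK2 class 3 and 9. Array weights, the low-contrast limit, Talmapimod's removal, run and contrast together, and the suffix b term were chosen after seeing the data. Of the 20 named CREs that differed among CKIs, chosen among CREs called with the run term, all 20 stayed called under both other pseudocounts and quantile normalization, and 19 with contrast as a covariate.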
